A study of Homo sapiens with 24 samples.

Results

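FOXP1 was followed as a single transcript, read by 1 probe of 43291 non-control probes, on all 24 one-colour arrays of the series. The probe is the one that the study's supplementary list of regulated genes pairs with the symbol FOXP1, and it had a single spot per array. The samples were polyclonal cultures of 3 established neuroblastoma lines, SK-N-BE(2), CHP-212 and IMR-32, each carrying either a FOXP1 or a GFP transgene in the RevTet-On system, in which the transactivator rtTA drives the pRevTRE promoter when doxycycline is present. Total RNA of each of these 6 cultures was profiled 0, 12, 24 and 72 h after induction, which gave 4 arrays per culture. FOXP1 and GFP cultures of a line share the retroviral system and the induction, so that the GFP cells also controlled for both. The study notes leakage of the vector's promoter and therefore compared FOXP1 with GFP cells rather than with uninduced ones. The 4 arrays of a culture are time points of 1 polyclonal population rather than separately transduced cultures, and p-values therefore measure the spread between time points.

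FOXP1 is a forkhead transcription factor of the FOXP subfamily, which dimerises through a leucine zipper, binds DNA through the forkhead domain and mostly represses its targets with partners such as histone deacetylases. It is known from B-cell, lung, heart and neuronal development, and its locus on the short arm of chromosome 3 lies in a region often lost in tumors. FOXP1 occupies chromosome 3 from 70954708 to 71583978 on the minus strand of GRCh38.p14. The study cloned its open reading frame behind the inducible promoter, so that the transgene does not carry the promoters of the endogenous gene. Where the array probe lies within the transcript was not analysed here. The probe may therefore read the transgene or miss it, and where it reads both, endogenous and transgenic transcript cannot be told apart. In the GFP cultures, the probe reads the cells' own transcript.

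The endogenous gene has several start sites, and 6 promoter windows of FOXP1 (from 250 bases before to 50 bases after a start) were taken from RefSeq, GRCh38.p14. They were searched on both strands for 2 forkhead motifs that do not share a site in these windows, the general TGTTTAC and TATTTAT, the form known for FOXP proteins. Of the FOXP1 windows, 2 of 6 held a motif, against 8.0% of all 35116 windows of this length. TGTTTAC was present in 3.42% and TATTTAT in 4.93% of all windows. The 2 windows are shown because they are the ones in which the gene's own promoters hold a forkhead motif, with the motif in capitals and each written from 5′ to 3′ on the minus strand.
FOXP1, start at 71583728, chr3:71583679-71583978, TATTTAT at position -26: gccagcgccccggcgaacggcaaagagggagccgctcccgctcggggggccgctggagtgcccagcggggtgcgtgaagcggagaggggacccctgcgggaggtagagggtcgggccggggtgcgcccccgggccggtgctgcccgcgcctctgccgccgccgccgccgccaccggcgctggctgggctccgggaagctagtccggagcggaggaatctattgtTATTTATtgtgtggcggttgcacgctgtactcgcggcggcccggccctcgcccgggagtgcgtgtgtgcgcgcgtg
FOXP1, start at 71245077, chr3:71245028-71245327, TGTTTAC at position -193: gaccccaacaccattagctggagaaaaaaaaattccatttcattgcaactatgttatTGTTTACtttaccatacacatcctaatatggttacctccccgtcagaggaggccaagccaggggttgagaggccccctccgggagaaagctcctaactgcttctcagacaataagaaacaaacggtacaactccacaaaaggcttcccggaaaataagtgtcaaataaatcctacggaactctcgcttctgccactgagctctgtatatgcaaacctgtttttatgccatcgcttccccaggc
Positions are counted from the start site. The first of these is the start with the highest coordinate among the 6 windows and lies 250 bases inside the annotated end of the gene. The matches describe letters and not binding, and promoter use was not measured on the arrays.

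The FOXP1 spot was of high quality throughout. On each of the 24 arrays it was marked well above background, and on none was it marked as an outlier or as saturated. Its median pixel intensity exceeded the local background by 62.2- to 482-fold, and the scanner software's error of the processed signal was 10.0% on every array. Between 53.9 and 82.3% of all probes were well above background on an array. On the CHP-212 slide that held the 0 and 12 h arrays, this share was 53.9 to 60.4%, against 72.8 to 82.3% on all other arrays. For a CHP-212 spot not well above background at 0 or 12 h, low expression and this slide can therefore not be told apart. Each of the 6 slides held 4 arrays of a single line, so that line and slide cannot be told apart in comparisons between lines, whereas FOXP1 and GFP cells of the same time point shared a slide.

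In GFP cells, which carry no FOXP1 transgene, SK-N-BE(2) stood well above the other lines. The processed signal of the probe at 0, 12, 24 and 72 h was 9837, 11449, 9538.5 and 11311 in SK-N-BE(2) GFP cells. In IMR-32 GFP cells it was 1705, 3905, 3602 and 3171. In CHP-212 GFP cells it was 2556, 4142, 2224 and 1867. Each of the 4 SK-N-BE(2) signals exceeded each of the 8 signals of the other lines, and the latter overlapped between IMR-32 and CHP-212. In bulk RNA, a lower signal from fewer cells with the transcript and one from less transcript per cell cannot be told apart.

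Arrays differed in overall brightness, and levels are therefore given as log2 of the processed signal relative to the 75th percentile of the array. On this scale, SK-N-BE(2) GFP cells had FOXP1 levels of 3.00, 3.30, 2.87 and 2.81 at 0, 12, 24 and 72 h. IMR-32 GFP cells had levels of 1.05, 1.19, 1.39 and 1.18, and CHP-212 GFP cells of 0.77, 1.20, 1.08 and 1.05. The ranges of SK-N-BE(2) and of the other lines did not overlap.

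The FOXP1 level was 3.47-fold higher in SK-N-BE(2) than in IMR-32 GFP cells (log2 difference 1.79, SE 0.15, limma over all 24 arrays, adjusted p = 2.12e-09, higher at 4 of 4 time points). By the same test, 43.3% of all probes differed between these GFP cultures at this threshold, and 24.7% did so with a fold change of at least 2. Against CHP-212 GFP cells, the level in SK-N-BE(2) was 3.91-fold higher (log2 difference 1.97, SE 0.15, adjusted p = 2.47e-10 by limma), where 47.9% of all probes differed and 30.6% with at least a 2-fold change. A two-sided exact permutation test of the probe alone gave p = 0.0286 for both, the smallest p that 4 arrays against 4 allow. At matched times, the ratio of SK-N-BE(2) over IMR-32 was 3.87, 4.33, 2.79 and 3.09, and that over CHP-212 was 4.70, 4.29, 3.44 and 3.38.

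IMR-32 and CHP-212 GFP cells were not separated. Their log2 difference was 0.17 with a 95% interval from -0.13 to 0.48 (limma, adjusted p = 0.358; exact permutation p = 0.286), whereas 46.9% of all probes differed between these cultures and 30.8% did so with at least a 2-fold change. At matched times, the ratio of IMR-32 over CHP-212 was 1.21, 0.990, 1.23 and 1.09.

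**Figure D1:**
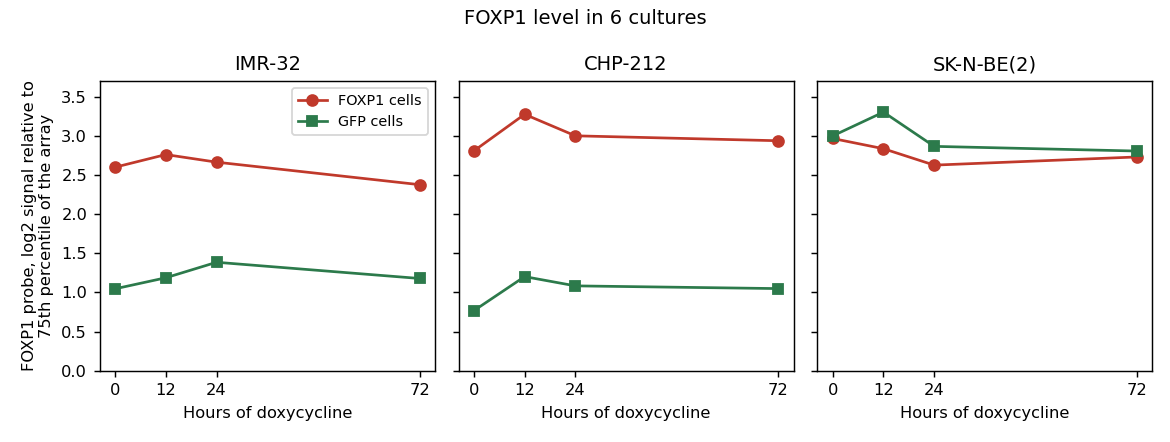
FOXP1 level (log2 processed signal relative to the 75th percentile of the array) against hours of doxycycline, 1 point per array, in the 3 lines, with circles for FOXP1 cells and squares for GFP cells. GFP cells of SK-N-BE(2) lie between 2.81 and 3.30, those of IMR-32 and CHP-212 between 0.77 and 1.39.

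The FOXP1 transcript was among the brighter signals on every array. The probe ranked 3301, 3064, 3585 and 3663 by processed signal in SK-N-BE(2) GFP cells at 0, 12, 24 and 72 h, with rank 1 for the brightest of the 43291 probes. It ranked 7497, 7215, 6471 and 6951 in IMR-32 GFP cells. In CHP-212 GFP cells it ranked 8292, 7167, 7534 and 7632. Between 7.08 and 8.46% of the probes were thus brighter than FOXP1 in SK-N-BE(2) GFP cells, 14.9 to 17.3% in IMR-32 and 16.6 to 19.2% in CHP-212.

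In FOXP1 cells, the probe ranked 3772, 3540, 3500 and 3978 in IMR-32. It ranked 3881, 2693, 3320 and 3209 in CHP-212. In SK-N-BE(2) FOXP1 cells it ranked 3368, 3731, 4070 and 3656. The share of brighter probes was 7.78 to 9.40% for SK-N-BE(2), 6.22 to 8.96% for CHP-212 and 8.08 to 9.19% for IMR-32 FOXP1 cells, so that the FOXP1 cultures of all lines and the SK-N-BE(2) GFP culture covered overlapping ranges of rank. A rank compares signals of different probes, which also depend on how each probe hybridises, and it is given as a description.

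**Figure D2:**
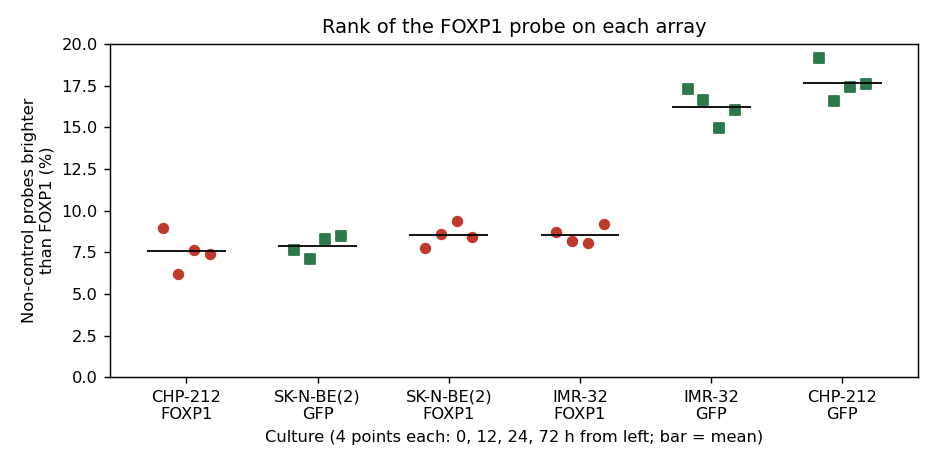
Percent of non-control probes brighter than the FOXP1 probe on each of the 24 arrays, by culture, ordered by mean FOXP1 level; the 4 points of a culture are 0, 12, 24 and 72 h from left to right and the bar is their mean. The IMR-32 and CHP-212 GFP cultures lie between 14.9 and 19.2%, the other 4 cultures between 6.22 and 9.40%.

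In FOXP1 cells, the processed signal at 0, 12, 24 and 72 h was 2785, 10566, 8714 and 7297 in CHP-212, where the 0 h array had the lowest 75th percentile of all 24. It was 9646, 11368, 6857 and 7846 in SK-N-BE(2) and 8781, 10319, 6814 and 11125 in IMR-32. The order of mean levels, scaled by the 75th percentile, was CHP-212 FOXP1, SK-N-BE(2) GFP, SK-N-BE(2) FOXP1, IMR-32 FOXP1, IMR-32 GFP and CHP-212 GFP. CHP-212 FOXP1 cells had levels of 2.81, 3.28, 3.00 and 2.94 at 0, 12, 24 and 72 h. SK-N-BE(2) FOXP1 cells had levels of 2.97, 2.84, 2.63 and 2.73. IMR-32 FOXP1 cells had levels of 2.60, 2.76, 2.66 and 2.38. The values of SK-N-BE(2) FOXP1 cells overlapped those of the other FOXP1 cultures and of SK-N-BE(2) GFP cells, whereas the IMR-32 FOXP1 values, up to 2.76, lay below all values of CHP-212 FOXP1 and SK-N-BE(2) GFP cells, from 2.81. All lay above the 8 values of IMR-32 and CHP-212 GFP cells.

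Among neighbours in this order, the step from IMR-32 FOXP1 to IMR-32 GFP cells was the only one that passed the test (1.40 on the log2 scale, 95% interval 1.09 to 1.71, limma over all arrays, adjusted p = 2.41e-07, where 19.4% of all probes were called). For calls in this and the next paragraph, an adjusted p under 0.05 was enough and no fold limit was set. CHP-212 FOXP1 exceeded SK-N-BE(2) GFP cells by 0.01 (interval -0.30 to 0.32, adjusted p = 0.958), where 49.2% of all probes were called. SK-N-BE(2) GFP exceeded SK-N-BE(2) FOXP1 cells by 0.20 (interval -0.10 to 0.51, adjusted p = 0.905), where 1.22% were called. SK-N-BE(2) FOXP1 exceeded IMR-32 FOXP1 cells by 0.19 (interval -0.12 to 0.50, adjusted p = 0.317), where 42.7% were called. The signs of the first and the last of these 3 differences turned under another background correction or scaling of the arrays.

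For cultures further apart within the upper 4, calls depended on the processing. The level in CHP-212 FOXP1 cells was 1.32-fold that of IMR-32 FOXP1 cells (log2 difference 0.40, interval 0.10 to 0.71, limma, adjusted p = 0.0272), where 50.1% of all probes were called. The level in SK-N-BE(2) GFP cells was 1.31-fold that of IMR-32 FOXP1 cells (log2 difference 0.39, interval 0.09 to 0.70, adjusted p = 0.0352), where 44.6% of all probes were called. With quantile normalization these differences were 0.26 (adjusted p = 0.157) and 0.17 (adjusted p = 0.392), and with the slide as a random block their adjusted p-values were 0.0763 and 0.0944, so that neither call held. CHP-212 FOXP1 and SK-N-BE(2) FOXP1 cells were not separated (difference 0.22, adjusted p = 0.244), where 49.1% of all probes were called. Each of the pairs of a high culture with the GFP cells of IMR-32 or CHP-212 passed the test, and the share of all probes called in those not yet given was 51.3% for CHP-212 FOXP1 against IMR-32 GFP, 6.78% for CHP-212 FOXP1 against CHP-212 GFP, 41.6% and 47.7% for SK-N-BE(2) FOXP1 against GFP cells of IMR-32 and of CHP-212, and 46.5% for IMR-32 FOXP1 against CHP-212 GFP cells.

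**Figure D3:**
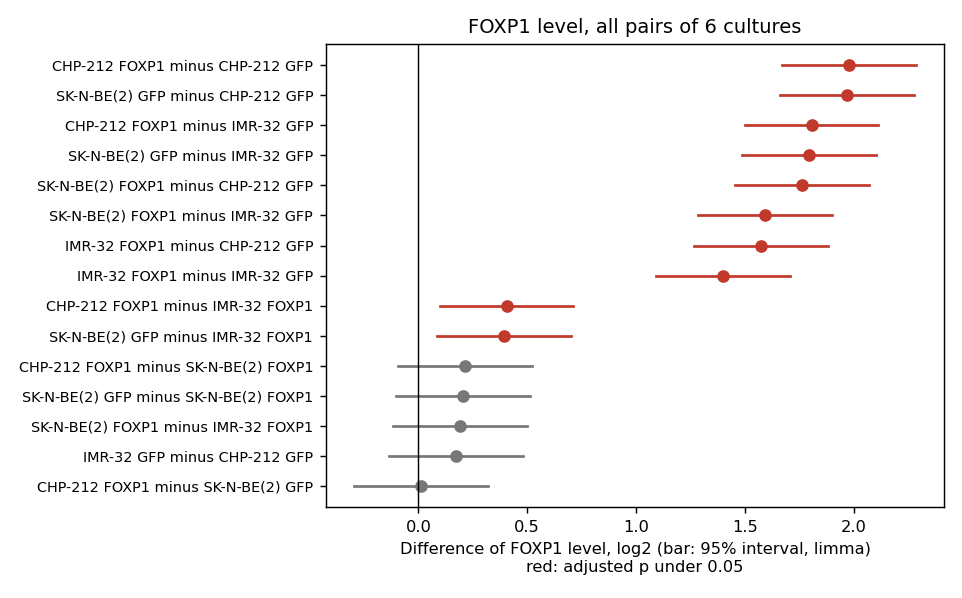
Log2 difference of the FOXP1 level (horizontal axis) for all 15 pairs of the 6 cultures, from the limma fit of 24 arrays, with 95% intervals; red marks an adjusted p under 0.05. The intervals of the pairs that involve a GFP culture of IMR-32 or CHP-212 against any other culture lie above 1, except for the pair of these GFP cultures with each other.

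Within lines, FOXP1 cells were compared with GFP cells in a fit of the 8 arrays of a line. The level was 2.64-fold higher in FOXP1 cells of IMR-32 (adjusted p = 0.00011 by limma), where 12.2% of probes were called in either direction and 6.34% as higher, a call needing an adjusted p under 0.05 and at least a 2-fold change. It was 3.94-fold higher in CHP-212 (adjusted p = 0.000443 by limma), where 3.02% of probes were called and 1.93% as higher. Both gains were already present at 0 h, where the level was 2.93-fold higher in IMR-32 and 4.11-fold higher in CHP-212. At 12 h the gains were 2.98- and 4.21-fold, and at 24 and 72 h they were below those at 0 h in both lines. The pooled fold changes thus compare cultures over all time points and do not measure the response to doxycycline. A change of the gain with time was not tested. By Western blot, at a time not profiled on the arrays, the study reports inducible FoxP1 protein in its FOXP1 lines against GFP lines. It also found fewer viable cells in all FOXP1 lines, SK-N-BE(2) included. On the arrays, which read RNA and not protein, the culture labelled SK-N-BE(2) FOXP1 did not have a higher level than its GFP control at any of the 4 time points. Its log2 difference was -0.03, -0.47, -0.24 and -0.08 at 0, 12, 24 and 72 h and was not called (-0.20, adjusted p = 0.911 by limma, exact permutation p = 0.171), where 0.711% of probes were called and 0.426% as higher. These shares depended on the processing. With normexp correction, 1425 probes were called in place of 4123 in IMR-32 and 604 in place of 994 in CHP-212. With the time point as replicate block, 477 were called in place of 242 in SK-N-BE(2).

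The difference between FOXP1 and GFP cells was itself compared between lines. For calls in this paragraph, an adjusted p under 0.05 was enough and no fold limit was set. Against SK-N-BE(2), the difference passed the test in IMR-32, where 11.8% of all probes were called, and in CHP-212, where 3.05% were. At this threshold, the number of probes called depended on the processing. It was 4280 in the IMR-32 and 1104 in the CHP-212 comparison here, and 1873 and 269 with normexp correction. With the time point within a line as replicate block it was 7553 and 3227. Requiring at least a 2-fold change as well left 3505 and 995 probes with the processing used here. CHP-212 exceeded IMR-32 by 0.58 on the log2 scale (SE 0.21), with an adjusted p of 0.0700 by limma over all probes, among which 14.6% were called. With the time point within a line as replicate block, the adjusted p was 0.0179, so the call depends on the pairing of the arrays.

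No trend of the level with hours of doxycycline was detectable in any culture with 4 arrays. In each line, the 0 and 12 h arrays shared 1 slide and the 24 and 72 h arrays another. Early against late time and slide can therefore not be told apart. Per 72 h, the fitted slope of the log2 level was -0.30 in IMR-32 FOXP1, -0.04 in CHP-212 FOXP1 and -0.18 in SK-N-BE(2) FOXP1 cells. The slope in GFP cells was -0.31 in SK-N-BE(2), 0.13 in CHP-212 and 0.07 in IMR-32. The sign of a slope was not stable in IMR-32 and CHP-212. In CHP-212 FOXP1 cells it turned to 0.036 with normexp correction, 0.13 with quantile normalization and 0.14 in the authors' table, and to 0.098 and 0.58 without the 12 or the 72 h array. It turned to 0.19 without the 72 h array in IMR-32 FOXP1 cells, to -0.15 without the 0 h array in CHP-212 GFP cells, and in IMR-32 GFP cells to -0.13 with the median and -0.10 without the 0 h array. All 6 intervals from limma included 0, the lowest reaching from -0.92 to 0.30 in SK-N-BE(2) GFP cells and the highest from -0.49 to 0.74 in CHP-212 GFP cells, and adjusted p-values were 0.826 or higher. Of all probes, 0.0138, 0.0718 and 0.0883% were called for a slope in FOXP1 cells of IMR-32, CHP-212 and the SK-N-BE(2) line, and 0.116, 0 and 0.135% in their GFP cells.

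FOXP1 varied little within cultures and much between them. The standard deviation of its log2 level within a culture, pooled over the 6 cultures, was 0.18, against a median of 0.37 over 36234 tested probes, and 3.73% of these probes varied less. The standard deviation between the 6 culture means was 0.91, against a median of 0.51 over all probes, and 76.1% of probes varied less between cultures. Differences between cultures made up 96.7% of the variance of FOXP1 over the 24 arrays, against a median of 68.3% over all probes. The tested probes include dim ones, and 20986 of the others were, like FOXP1, well above background on all 24 arrays. FOXP1 was not compared with probes of like brightness.

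To find the probes that follow FOXP1, Pearson's r with the FOXP1 level was computed over the 24 arrays for 36233 other probes. The arrays are time points of 6 cultures and FOXP1 fell into 4 high and 2 low cultures, so that r describes these cultures, and no p is given. Symbols were available for 2904 of these probes, 8.01%, nearly all from the study's list of regulated genes, so that named followers were already known to differ between FOXP1 and GFP cells in some line. An r of at least 0.8 was reached by 23 probes and an r of at most -0.8 by 11. Single arrays of CHP-212 moved these counts, the first to 54, 36 and 39 without the 12, 24 or 72 h array of FOXP1 cells, and the second to 25 and 19 without the 12 or 72 h array of FOXP1 cells and to 21 without the 0 h array of GFP cells. The highest r was 0.897 and the lowest -0.949, with a median of 0.06 over all probes.

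**Figure D4:**
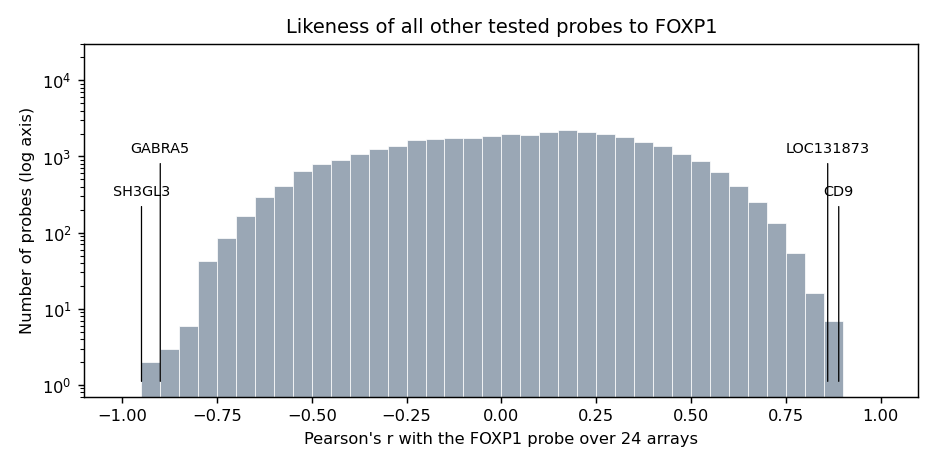
Number of probes (log axis) by Pearson's r with the FOXP1 probe over 24 arrays, in steps of 0.05; lines mark CD9, LOC131873, SH3GL3 and GABRA5. The bulk lies around the median of 0.06, with 23 probes at 0.8 or above and 11 at -0.8 or below, or 54 and 25 without the 12 h array of CHP-212 FOXP1 cells.

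CD9, a tetraspanin of the cell surface, had the highest Pearson's r among probes with a symbol, 0.890. The order of the named probes depends on this measure. By Spearman's rank correlation, 4 of the 12 highest and 5 of the 12 lowest remained among the 12, and CD9 (0.71) stood below LOC131873 (0.87). Its mean log2 level was -0.72 ± 0.56 in IMR-32 GFP and 1.01 ± 0.32 in IMR-32 FOXP1 cells (SD, n = 4 time points here and below). It was -1.49 ± 0.38 in CHP-212 GFP and 1.09 ± 0.33 in CHP-212 FOXP1 cells, and 2.17 ± 0.19 and 2.54 ± 0.37 in GFP and FOXP1 cells of SK-N-BE(2). CD9 was thus low in the 2 cultures with low FOXP1 and highest in SK-N-BE(2), with 1.57 log2 units per log2 unit of FOXP1.

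LOC131873 followed with an r of 0.861, and 22 of its 24 spots were well above background. Its mean level was -6.55 ± 1.22 in IMR-32 GFP, where 2 of 4 arrays were well above background, and -1.81 ± 0.41 in IMR-32 FOXP1 cells. In CHP-212 it was -4.23 ± 0.27 in GFP and 2.23 ± 0.15 in FOXP1 cells. In SK-N-BE(2), whose FOXP1 cells had no higher FOXP1 level than its GFP cells, it was 1.11 ± 0.44 in GFP and -1.72 ± 0.63 in FOXP1 cells.

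ABCB1, the drug efflux pump P-glycoprotein, had an r of 0.831, which includes dim spots in IMR-32 GFP cells. Its level was -3.76 ± 0.46 in CHP-212 GFP and -1.55 ± 0.28 in CHP-212 FOXP1 cells, and 1.40 ± 0.20 and 1.24 ± 0.18 in GFP and FOXP1 cells of SK-N-BE(2). In IMR-32 FOXP1 cells it was -0.21 ± 0.32, whereas in IMR-32 GFP cells 1 of 4 arrays was well above background. ZNF649, a zinc finger protein gene, had an r of 0.844 and ranged from -5.43 ± 0.17 in IMR-32 GFP to -0.35 ± 0.65 in SK-N-BE(2) FOXP1 cells. PDE4B, a cAMP phosphodiesterase, had an r of 0.812, a rank correlation of 0.47 and a slope of 1.41 log2 units per log2 unit of FOXP1.

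The remaining probes of the 12 highest were HEATR5A (r = 0.857), TPM1 (0.820), which encodes the actin-binding protein tropomyosin, FILIP1L (0.807), PAG1 (0.795), ST8SIA4 (0.791), a polysialyltransferase that modifies NCAM, PARM1 (0.785) and SNX17 (0.782), a sorting nexin of endosomes. Among the 4 of them with every spot well above background, slopes ranged from 0.49 log2 units per log2 unit of FOXP1 for SNX17 to 0.88 for PAG1. TPM1 had levels of 3.16 ± 0.19 in IMR-32 GFP and 4.77 ± 0.20 in SK-N-BE(2) GFP cells. The 2 unnamed probes with a higher r than CD9, UKv4_A_23_P165450 (0.897) and UKv4_A_23_P257201 (0.890), had shallower slopes, 0.49 and 0.27, and were marked well above background throughout.

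Among probes that ran against FOXP1, SH3GL3, which encodes endophilin A3, a protein of synaptic vesicle endocytosis, had the lowest r over the 24 arrays, -0.949. By Spearman's rank correlation it was -0.75, against -0.85 for SYT17. Its level was -0.55 ± 0.15 in IMR-32 GFP and -1.36 ± 0.25 in CHP-212 GFP cells. In the 4 cultures with high FOXP1 it lay between -5.57 ± 0.44 in IMR-32 FOXP1 and -5.18 ± 0.50 in SK-N-BE(2) FOXP1 cells, with -5.36 ± 0.54 in SK-N-BE(2) GFP cells. In CHP-212 FOXP1 cells, 2 of 4 SH3GL3 spots were well above background, those at 24 and 72 h.

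GABRA5, a subunit of the GABA-A receptor, had an r of -0.900, but 10 of its 24 spots were well above background. Its level was -0.85 ± 0.17 in IMR-32 GFP and -2.94 ± 0.22 in CHP-212 GFP cells. No array of CHP-212 FOXP1 cells or of either SK-N-BE(2) culture had a spot well above background, whereas 2 of 4 did in IMR-32 FOXP1 cells. With the dim spots taken at the lowest signal that still passed on their array, CHP-212 GFP cells had at least 5.05-fold more GABRA5 signal than CHP-212 FOXP1 cells, and IMR-32 GFP cells at least 45.1-fold more than SK-N-BE(2) GFP cells.

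**Figure D5:**
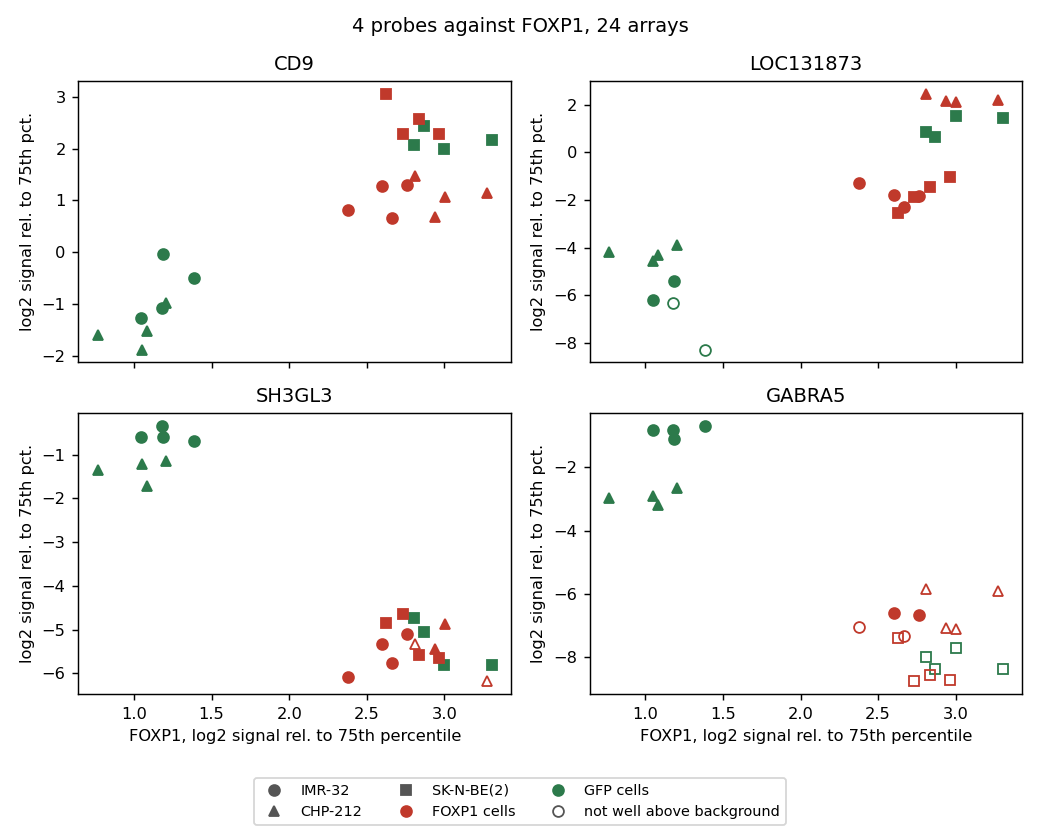
Log2 level of CD9, LOC131873, SH3GL3 and GABRA5 (vertical axes) against that of FOXP1 (horizontal axes), 1 point per array; shape gives the line, color the transgene, and open symbols are spots not well above background. The arrays form a group of 8 with low FOXP1 (up to 1.39) and a group of 16 with high FOXP1 (from 2.38). Each r rests on the difference between these groups, and that of LOC131873 also on the high group, where its culture means fell in the order of FOXP1.

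SYT17, a member of the synaptotagmin family, had an r of -0.874 with levels of 0.85 ± 0.18 in IMR-32 GFP and -0.56 ± 0.18 in IMR-32 FOXP1 cells, and of 0.60 ± 0.35 and -3.60 ± 0.24 in GFP and FOXP1 cells of CHP-212. In SK-N-BE(2) it was -4.37 ± 0.24 in GFP and -3.07 ± 0.11 in FOXP1 cells. The remaining probes of the 12 lowest were PCSK6 (r = -0.811), a proprotein convertase, CIB2 (-0.788), BMAL2 (-0.786), a transcription factor of the circadian clock, LHX6 (-0.783), a LIM homeobox factor, HSD11B2 (-0.783), the enzyme that inactivates cortisol, SLC43A1 (-0.775), an amino acid transporter, CRTAC1 (-0.774), MTARC1 (-0.773) and ARHGAP9 (-0.772). The unnamed probe UKv4_A_23_P48988 lay between SH3GL3 and GABRA5 with an r of -0.927. Its level was 1.02 ± 0.22 in IMR-32 GFP and 0.24 ± 0.22 in CHP-212 GFP cells and lay between -3.49 ± 0.11 and -2.43 ± 0.78 in the other cultures.

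On deviations from the culture means, which leave the variation between time points, no probe reached 0.8 in either direction, the highest r was 0.775 and the lowest -0.799. Of the 12 named probes with the highest r, 6 kept a positive r on these deviations, and of the 12 with the lowest, 9 kept a negative one. Without CHP-212, 1255 probes had an r of at least 0.8 and 1046 of at most -0.8, against 77 and 55 without SK-N-BE(2) and 208 and 140 without IMR-32, and none of the 12 highest named probes remained among the 12 highest without CHP-212 or without IMR-32. All 24 named probes kept the sign of r with each line left out.

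RefSeq promoter windows were at hand for 8 of the 12 named genes of the highest r and 8 of the 12 of the lowest. Those of the highest r held no TGTTTAC or TATTTAT in 18 windows, and those of the lowest r held a motif in 1 of 12 windows, against 8.0% of all windows. That window belongs to SLC43A1 and is shown because it is the only one of a follower with a forkhead motif, written from 5′ to 3′ on the minus strand with the reverse complement of TGTTTAC in capitals.
SLC43A1, chr11:57514860-57515159, motif at position -24: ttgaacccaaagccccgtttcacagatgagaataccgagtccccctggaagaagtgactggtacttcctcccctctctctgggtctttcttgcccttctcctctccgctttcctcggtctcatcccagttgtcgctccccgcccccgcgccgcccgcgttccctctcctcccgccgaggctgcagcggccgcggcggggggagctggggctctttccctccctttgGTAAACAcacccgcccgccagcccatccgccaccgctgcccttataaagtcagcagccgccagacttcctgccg
A missing match means only that these letters are not in these windows.

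Lists of related genes were read through the same pairing, which covered 50 probes in 7 lists. In IMR-32, 18 of 46 tested members were higher and 16 lower in FOXP1 cells, against 12.2% of all probes and 66.3% of all probes with a symbol called in either direction. In CHP-212, 9 of 42 were higher and 4 lower, against 3.02% and 22.5%. Of 44 tested with SK-N-BE(2) cells, 0 were called by limma and 0 by the methods' t-test after adjustment, against 0.711% of all probes and 4.65% of those with a symbol. An unadjusted p under 0.05 was reached by 10 of the 44 with limma, against 7.67% of all probes and 22.7% of those with a symbol, and by 9 with the methods' t-test, against 8.55% and 20.7%. The symbols come from a list of genes that the study found regulated on these arrays, so the share among probes with a symbol is the closer background. By direction, 32.6% of probes with a symbol were higher and 33.7% lower in IMR-32 FOXP1 cells, and 14.3% were higher and 8.20% lower in CHP-212 FOXP1 cells. Over all probes, these shares were 6.34 and 5.86% in IMR-32 and 1.93 and 1.08% in CHP-212. With normexp background correction they were 2.67 and 1.54% in IMR-32 and 1.38 and 0.449% in CHP-212, and the higher ones then made up 63.4% of the calls in IMR-32 in place of 52% and 75.5% in CHP-212 in place of 64.1%. Calls also use spots that were not well above background, and a member that is dim in one culture can enter a fit through a culture where it is bright. Of the members called in IMR-32, every spot of both cultures was well above background for 15 of the 18 higher and 12 of the 16 lower ones, and in CHP-212 for 5 of the 9 higher and 1 of the 4 lower ones.

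Of the forkhead family, 12 of 41 listed genes were paired with a probe, and none of them was a further FOXP gene. Their r with FOXP1 ranged from -0.48 to 0.66 with a median of 0.11, against a median of 0.06 over all probes. In IMR-32, 1 of 11 tested members was higher in FOXP1 cells and 5 were lower, against 32.6 and 33.7% of probes with a symbol. Over both directions together, the share of members called was not above the 66.3% of probes with a symbol. FOXC1, a forkhead factor of mesodermal and eye development, was lower in IMR-32 FOXP1 cells (1.65 in GFP against -2.98 in FOXP1 cells, adjusted p = 1.33e-07 by limma), and higher in CHP-212 FOXP1 cells (1.77 against 4.07, adjusted p = 0.000384). FOXF1 was higher in IMR-32 FOXP1 cells (-5.40 against 0.72, adjusted p = 3.70e-07 by limma). In CHP-212, 3 of 11 members were higher and 1 was lower, against 14.3 and 8.20%.

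Of 24 listed genes near FOXP1 on the short arm of chromosome 3, 6 were paired, and their r ranged from -0.52 for FRMD4B to 0.57 for ARL6IP5 with a median of -0.10. In IMR-32, 3 of 6 were higher in FOXP1 cells and 1 was lower, where 66.3% of probes with a symbol were called in either direction, and in CHP-212 1 of 4 was higher and 1 lower, where 22.5% were. PROK2, a secreted prokineticin, was lower in IMR-32 FOXP1 cells (-0.15 in GFP against -2.39 in FOXP1 cells, adjusted p = 2.78e-06 by limma). In GFP cells, where FOXP1 was higher in SK-N-BE(2) than in IMR-32, 2 of these 6 genes were higher in SK-N-BE(2) and 3 were lower, against 13.7% of all probes called as higher and 24.7% in either direction, and 47.5% in either direction of those with a symbol. The 3 include TAFA4, of which 0 of 4 spots were well above background in SK-N-BE(2) GFP cells and which IMR-32 GFP cells exceeded by at least 1.68-fold, short of the 2-fold of a call.

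Partners of FOXP proteins were represented by 3 of 23 listed genes, of which 2 were lower in IMR-32 and 1 was higher in CHP-212 FOXP1 cells, where 66.3 and 22.5% of probes with a symbol were called in either direction. HDAC1, a histone deacetylase, was lower in IMR-32 FOXP1 cells (3.43 in GFP against 1.76 in FOXP1 cells, adjusted p = 1.45e-05 by limma). In CHP-212, its log2 difference was 0.21 (adjusted p = 0.539). Its r with FOXP1 over the 24 arrays was -0.13.

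Genes described as forkhead targets were represented by 10 of 17 listed genes. In IMR-32, 6 of 10 were higher in FOXP1 cells and 3 were lower, against 32.6 and 33.7% of probes with a symbol. The 6 include SEMA3C, a secreted semaphorin, of which 0 of 4 spots were well above background in GFP cells and whose level in FOXP1 cells was at least 1.30-fold higher, short of the 2-fold of a call. CDKN1B, the cell cycle inhibitor p27, was higher (-2.60 in GFP against -1.54 in FOXP1 cells, adjusted p = 0.00528 by limma), as was PIK3IP1, an inhibitor of PI3 kinase (-4.05 against -1.13, adjusted p = 0.000342). CNTNAP2, a neurexin-related adhesion protein, was lower (-3.55 against -6.53, adjusted p = 6.67e-05), with 2 of 4 spots well above background in FOXP1 cells. In CHP-212, 0 of 9 were higher, against 14.3% of probes with a symbol, and 2 were lower, against 8.20%, the lipoprotein receptor VLDLR (-2.92 against -4.05, adjusted p = 0.0133, with 2 of 4 spots well above background in FOXP1 cells) and SESN3 (-1.08 against -2.30, adjusted p = 0.0197). Their r with FOXP1 ranged from -0.45 to 0.43.

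Markers of adrenergic neuroblasts were represented by 10 of 21 listed genes, and 9 of 10 were higher in SK-N-BE(2) than in CHP-212 GFP cells, against 15.3% of all probes and 24.6% of those with a symbol. Between GFP cells of IMR-32 and CHP-212, in which FOXP1 was not separated, 8 of 10 were higher in IMR-32, against 14% and 25.6%. Several of these markers were dim in CHP-212 GFP cells, and every spot of both cultures was well above background for 3 of the 9 and for 2 of the 8. The CHP-212 slide of the 0 and 12 h arrays had a smaller share of spots well above background than the other slides. EYA1, a transcriptional coactivator, was well above background on 0 and TFAP2B, a transcription factor of sympathetic neurons, on 1 of 4 arrays of CHP-212 GFP cells, so that both entered the fit through the other lines. EYA1 was at least 183-fold higher in SK-N-BE(2) and at least 130-fold higher in IMR-32 than in CHP-212 GFP cells. DBH, which makes noradrenaline, was 4.56 in SK-N-BE(2), -0.82 in IMR-32 and -6.13 in CHP-212 GFP cells, where 2 of 4 spots were well above background. All 10 had an r with FOXP1 above 0, against 56.4% of all probes and 51.0% of those with a symbol. Their r ranged from 0.04 to 0.69, with STMN2, a microtubule regulator of neurons, the highest. In IMR-32, 6 of 10 were higher and 2 lower in FOXP1 cells, against 32.6 and 33.7% of probes with a symbol, and in CHP-212 3 of 8 were higher, against 14.3%. Of 5 mesenchymal markers tested in IMR-32, FOSL2 (log2 difference 2.32) and RUNX1 (1.54) were higher in FOXP1 cells. SOX9 (-3.10) and ID1 (-2.58, with 1 of 4 spots well above background in FOXP1 cells) were lower. Of probes with a symbol, 32.6% were higher and 33.7% lower there. In CHP-212, 1 of 6 was higher, RUNX1 (2.19), and 0 were lower, against 14.3 and 8.20% of probes with a symbol. MBP, the myelin basic protein of Schwann cells, had 4 of 4 spots well above background in IMR-32 GFP cells and 0 of 4 in IMR-32 FOXP1 cells, with at least 14.1-fold more signal in GFP cells, and entered the fit through the GFP arrays. Of the mesenchymal markers 7 of 22 and of the Schwann cell markers 2 of 9 were paired, with r from -0.32 to 0.32 and of -0.58 for MBP. Of 6 mesenchymal markers tested between GFP cells, 0 were higher and 4 were lower in SK-N-BE(2) than in CHP-212, where 15.3% of all probes and 32.2% of those with a symbol were lower, and 0 were higher and 4 were lower in IMR-32 than in CHP-212, where 16.8% and 33.7% were. Both counts of 4 include MAML2, of which 2 of 4 spots were well above background in CHP-212 and 0 of 4 in the other GFP cultures. CHP-212 exceeded the other GFP cultures in MAML2 by at least 1.23-fold for SK-N-BE(2) and 1.45-fold for IMR-32, short of the 2-fold of a call. Between SK-N-BE(2) and IMR-32, 1 was higher and 1 lower, against 13.7 and 11.1% of all probes and 24.2 and 23.2% of those with a symbol. PRRX1 was well above background on 0 and CDH19 on 1 of 24 arrays. The part of these cell type genes in the differences of FOXP1 between lines was not tested.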

How the data were processed

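RNA of 24 samples (6 cultures at 4 time points) was labelled with Cy3 and hybridised to one-colour Agilent arrays. Per the file headers, the deposited processed signal intensities were extracted with Agilent Feature Extraction 10.7.3.1, which subtracts the background, and the authors did not normalize them between arrays. A second deposited table holds the authors' quantile-normalized intensities and served as an alternative. The labels' processing notes name limma.

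Control and outlier spots (311 of all arrays) were left out. Levels are log2 of the processed signal minus the 75th percentile of the array. Probes entered a fit of a line when 4 or more of its 8 arrays showed them well above background, and the fit of 24 arrays when this held in at least 1 line. limma 3.58.1 in R 4.3.3 was run with Benjamini-Hochberg adjustment, two-sided, on the 8 arrays of a line or on all 24 arrays (36234 probes). The fits were tested on simulated data. Same-time arrays of FOXP1 and GFP cells shared a slide and deviated together (r from 0.22 to 0.60 over probes), so that the time points paired them.

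Symbols came from the study's supplementary list, 3504 probes, and 8 from accessions, updated through RefSeq (588 changed). The 12 highest and 12 lowest probes by r with a symbol, the 3 of each among all probes and the listed genes were named. Members and lists were chosen with earlier results of these data known. Alternatives were normexp correction (offset 50, on the median spot intensity), other scalings, filters, blocks, time points and left-out arrays. Those for the differences between cultures further apart in level, and other background correction and scalings for the counts of called probes, were added after seeing the data. Python 3.11.15, numpy 2.4.6, scipy 1.17.1, pandas 2.3.3 and matplotlib 3.10.9 were used. Some members of the lists are counted but not reported here by name.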

Additional observations from a re-analysis of the deposited data

Results flagged for a closer look

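The gain of FOXP1 over GFP cells differed between lines in the test of the difference itself (limma, 24 arrays). Compared with SK-N-BE(2), the gain exceeded it by 1.60 on the log2 scale for IMR-32 (adjusted p = 9.56e-06) and by 2.18 for CHP-212 (adjusted p = 1.07e-06).

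Of 72 probes named by r or listed and tested in at least 2 lines, 4 were called in opposite directions in different lines (5.56%), against 0.572% of all probes and 3.71% of those with a symbol. LOC131873 was higher in FOXP1 cells of IMR-32 and CHP-212 and lower in the culture labelled SK-N-BE(2) FOXP1, where the FOXP1 probe itself was not higher than in GFP cells (-0.20, adjusted p = 0.911 by limma), and the difference between lines was 7.57 for IMR-32 and 9.29 for CHP-212 on the log2 scale, with 2 of 4 spots well above background in IMR-32 GFP cells. SYT17 was lower in FOXP1 cells of IMR-32 and CHP-212 and higher in the culture labelled SK-N-BE(2) FOXP1, with differences of -2.71 and -5.50. In CHP-212 FOXP1 cells, 2 of 4 SYT17 spots were well above background, those at 24 and 72 h. FOXC1 was higher in FOXP1 cells of CHP-212 and lower in those of IMR-32, a difference of 6.93. SESN3, a stress-induced regulator of mTORC1, was lower in FOXP1 cells of CHP-212 and higher in those of IMR-32, a difference of -2.54. LOC131873 and SYT17 were named for their r on the same arrays, and their values are given as a description.

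No FOXP1 array stood apart from the other 3 of its culture. Among the probes named by r, 5 of 168 culture groups tested, FOXP1 included, held an array far from the others, where chance gives about 1 in 20. GABRA5 was -7.39 at 24 h in SK-N-BE(2) FOXP1 cells against -8.78 to -8.57, all spots there being not well above background. BMAL2 was -2.37 at 12 h in CHP-212 GFP cells. HSD11B2 was -1.41 at 72 h and MTARC1 -2.61 at 12 h in SK-N-BE(2) GFP cells. UKv4_A_23_P165450 was 0.26 at 72 h in CHP-212 FOXP1 cells.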

How the results depend on the processing

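The differences of FOXP1 between GFP cells of SK-N-BE(2) and of the other lines, and between FOXP1 and GFP cells of IMR-32 and CHP-212, kept their direction and call under every alternative run. SK-N-BE(2) over IMR-32 ranged from 1.62 to 1.79 and over CHP-212 from 1.86 to 1.97, and with an array left out from 1.69 to 1.86 and from 1.86 to 2.03. FOXP1 over GFP cells ranged from 1.26 to 1.46 in IMR-32 and from 1.89 to 1.98 in CHP-212, and with an array left out from 1.35 to 1.48 and from 1.89 to 2.04. In SK-N-BE(2) it was never called, from -0.27 to -0.10 with an array left out, and IMR-32 minus CHP-212 GFP cells ranged from 0.088 to 0.23 likewise. For neighbours in the order, CHP-212 FOXP1 minus SK-N-BE(2) GFP was -0.045 with normexp correction and -0.0049 with the median for scaling, and -0.078 to 0.11 with an array left out. SK-N-BE(2) FOXP1 minus IMR-32 FOXP1 was -0.0039 with quantile normalization and -0.0031 in the authors' table. The alternatives for CHP-212 FOXP1 and SK-N-BE(2) GFP minus IMR-32 FOXP1 cells were chosen after seeing the data. The first was not called with normexp correction (0.44), quantile normalization (0.26), the median (0.34), the authors' table (0.25) or the slide as a random block (0.40), and ranged from 0.31 to 0.47 with an array left out, losing the call without the 12 h array of CHP-212 FOXP1 (0.31) or the 72 h array of IMR-32 FOXP1 cells (0.33). The second was not called with quantile normalization (0.17), the median (0.34), the authors' table (0.17), the random block (0.39) or at 12, 24 and 72 h only (0.39), and ranged from 0.29 to 0.46 with an array left out, losing the call without the 0, 24 or 72 h array of IMR-32 FOXP1 (0.39, 0.41 and 0.32) or the 0 or 12 h array of SK-N-BE(2) GFP cells (0.39 and 0.29). The difference of the gain between CHP-212 and IMR-32 was called with the time point within line as replicate block (0.58, adjusted p = 0.0179) and with the slide as a random block (0.58, adjusted p = 0.0354), and ranged from 0.49 to 0.64 with an array left out, called only without the 0 h array of CHP-212 FOXP1 cells (adjusted p = 0.0489). The replicate block left the calls of FOXP1 within lines as they were (adjusted p = 0.000234, 0.00268 and 0.437 in IMR-32, in CHP-212 and with SK-N-BE(2) cells).

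The slope in CHP-212 FOXP1 cells turned to 0.036 with normexp correction, 0.13 with quantile normalization and 0.14 in the authors' table, and that in IMR-32 GFP cells to -0.13 with the median. With an array left out, slopes ranged from -0.32 to 0.58 in CHP-212 FOXP1, -0.15 to 0.95 in CHP-212 GFP, -0.45 to 0.19 in IMR-32 FOXP1, -0.10 to 1.02 in IMR-32 GFP, -1.02 to -0.045 in SK-N-BE(2) FOXP1 and -0.45 to -0.18 in SK-N-BE(2) GFP cells.

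Probes with r of at least 0.8 numbered 15 with normexp correction, 14 by Spearman's rank correlation, 660 over the 6 culture means, 0 on deviations from the culture means, 160 on the 0 and 12 h arrays, 83 on the 24 and 72 h arrays, and 208, 1255 and 77 when IMR-32, CHP-212 or else SK-N-BE(2) was left out. Probes with r of at most -0.8 numbered 6 with the median, 7 among probes well above background on all arrays, 357, 0, 110 and 49 in the same order of arrays, and 140, 1046 and 55 without a line. With an array left out, the counts were 18 to 54 and 8 to 25, 54 and 25 without the 12 h array of CHP-212 FOXP1 cells, 39 and 19 without its 72 h array, 36 of the first kind without its 24 h array and 21 of the second without the 0 h array of CHP-212 GFP cells. Over the 6 culture means, 4 of the 12 highest and 4 of the 12 lowest named probes remained among the 12. On deviations from the culture means, r turned to -0.039 for LOC131873, -0.0025 for ABCB1, -0.16 for TPM1, -0.21 for PDE4B, -0.066 for PAG1, -0.17 for SNX17, 0.26 for SYT17, 0.046 for BMAL2 and 0.14 for CRTAC1.

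Counts of called probes in this paragraph need an adjusted p under 0.05 and at least a 2-fold change, also in the differences between lines. Among probes well above background on every array, 628 were called in CHP-212, 4377, 5636 and 5286 between GFP cells of SK-N-BE(2) and IMR-32, SK-N-BE(2) and CHP-212, and IMR-32 and CHP-212, and 1783, 560 and 2172 in the differences between lines. With normexp correction, tried after seeing the data, 1425 were called in IMR-32 and 604 in CHP-212, 5222, 7340 and 7180 between GFP cells and 1663, 264 and 1916 in the differences between lines (3505, 995 and 4274 with the processing reported), in the same order. With the time point block, 477 were called in SK-N-BE(2) and 1998 for CHP-212 minus SK-N-BE(2), the latter being 3227 by the adjusted p alone. With normexp correction, 15.1% of probes were brighter than FOXP1 in IMR-32 GFP and 7.85% in IMR-32 FOXP1 cells. The cause of these changes was not tested.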
